A study of Mus musculus with 8 samples.

Results

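Protocadherins and cadherins, the calcium-dependent adhesion proteins by which neurons recognise and hold on to one another, were examined for Argonaute binding in the mouse forebrain. Every gene symbol starting with Pcdh, or with Cdh followed by a digit, was taken from the 3' UTR, CDS, 5' UTR and intron columns of the authors' deposited target table. This gave 69 of the 9962 genes named there: 43 clustered protocadherins of the Pcdha, Pcdhb and Pcdhg arrays, 11 non-clustered protocadherins and 15 cadherins. They were named by 440 of the 70142 clusters, a cluster being a stretch of transcript on which immunoprecipitated reads piled up, and these held 11963 of 1834586 reads. The clusters come from HITS-CLIP, which sequences RNA fixed by ultraviolet light to an immunoprecipitated Argonaute protein. The study made 5 Flag-Ago2 libraries from Camk2a-cre; Rosa-Stop fl/fl-Flag-Ago2 mice and 3 control libraries from Rosa-Stop fl/fl-Flag-Ago2 mice, which carry the same tagged allele without Cre, in 3 experiments. All mice were killed at 8 to 14 weeks of age. Cre was driven by the Camk2a promoter, so per the labels the tagged Ago2 was made in forebrain neurons that use it, and each immunoprecipitation used part of 1 forebrain. The table gives 1 pooled read count per cluster and no value per library. No control level and no replicate spread can therefore be given, and every comparison below is a description without a test.

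Exonic clusters lay on the neuronal genes Camk2a (618 reads), Syt1 (537), Rbfox3 (151), Snap25 (111) and Slc17a7 (88). They also lay on the glial genes Slc1a2 (1105 reads), Mbp (298), Aldoc (209) and Cx3cr1 (33), although the promoter that drives Cre is neuronal. What the glial reads contribute to any value below was not tested.

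Classical cadherins bind the same cadherin on the neighbouring cell and are tied to actin through catenins. Clustered protocadherins are expressed in different combinations in single neurons and give each cell a surface identity, through variable first exons that are spliced, in the alpha and gamma arrays, to shared constant exons. Argonaute proteins carry microRNAs (miRNAs) to transcripts, mostly in 3' UTRs, by pairing with the seed, bases 2 to 8 of the miRNA.

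The mature miRNAs whose seeds meet the sites described here are shown first, from RefSeq on GRCm38.p6, with bases 2 to 8 in capitals. Of 30 brain-abundant families on a list, 28 matched an entry. A family is named after one miRNA and covers those with its seed, so that miR-15 includes miR-16, miR-17 includes miR-20 and miR-93, miR-103 includes miR-107, miR-132 includes miR-212 and miR-221 includes miR-222. The seeds of miR-27 and miR-128 overlap, so that the 7 bases ACTGTGA in a transcript pair with both.
miR-27b-3p: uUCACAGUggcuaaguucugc
miR-128-3p: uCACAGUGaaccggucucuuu
miR-23a-3p: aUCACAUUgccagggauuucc
miR-129-5p: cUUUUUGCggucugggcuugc
miR-30a-5p: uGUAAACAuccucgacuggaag
miR-34a-5p: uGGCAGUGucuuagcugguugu
miR-221-3p: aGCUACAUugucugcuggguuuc

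The target sites below were read from GENCODE M21 transcripts on GRCm38 (mm10), for clusters inside 1 exon. They show the 8-base sites that the deepest member cluster overlaps and the other CDS sites so read outside the arrays that share ACTGTGA. Also shown is 1 site each from 3 of the deeper 3' UTR clusters. CDS clusters of Cdh10 (18 reads) and Cdh11 (10 reads), with matches to miR-27 and miR-128, could not be read in this way. Capitals mark the bases that pair with the seed, with any A opposite miRNA base 1. In Pcdh17, on the plus strand, the stretch with the miR-27 site at chr14:84533031-84533055 lies inside the deepest member cluster. The miR-23 site, in chr14:84533106-84533130, starts inside it and runs past its 3' end. The Pcdh18 site is at chr3:49755552-49755576 on the minus strand, the Pcdh19 CDS site at chrX:133685610-133685634 on the minus strand and the Cdh18 site at chr15:23173666-23173690 on the plus strand. The Cdh18 cluster is counted in CDS but is centred at -20 bases from the start codon. Its printed site lies there too, upstream of the start codon. The Pcdh7 site is at chr5:58129189-58129213 and the Pcdh10 site at chr3:45419664-45419688, both on the plus strand, and the Pcdh19 3' UTR site is at chrX:133585587-133585611 on the minus strand.
Pcdh17 CDS, miR-27: agacttacgaaACTGTGAAtcccac
Pcdh18 CDS, miR-27: agtatagtttgACTGTGAttgctga
Pcdh19 CDS, miR-27: aaagcaatgccACTGTGAgggtcat
Cdh18 CDS, miR-27: agacaagaaggACTGTGAAcgggaa
Pcdh17 CDS, miR-23: ttctcattgccAATGTGAAacctta
Pcdh7 3' UTR, miR-129: aaacctcctgaaCAAAAAAttgacc
Pcdh10 3' UTR, miR-30: cagtgtgtgccTGTTTACAgcacta
Pcdh19 3' UTR, miR-34: tgtagagcagcCACTGCCtgcaata

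Argonaute reads on these genes lay mostly outside 3' UTRs. A cluster that overlapped several regions was counted in a 3' UTR before CDS, in CDS before a 5' UTR and in an intron last. Of the 440 clusters, 315 were intronic (71.6%, 95% Wilson interval 67.2 to 75.6), against 58.6% of the 55842 clusters of the table that name a gene on their strand. CDS held 90 (20.5%, 16.9 to 24.5), against 23.2%, and 3' UTRs held 29 (6.59%, 4.63 to 9.31), against 16.6%. The remaining 6 were in 5' UTRs (1.36%, against 1.60%). Reads were amplified by PCR and carry no molecular identifiers, so intervals cover counting error only. A single gene, Pcdh9, held 166 of the 440 clusters. Without it the shares were 57.7% in introns, 30.3% in CDS and 10.2% in 3' UTRs, so the intron share then lay near that of the table and the 3' UTR share stayed below it.

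The clusters were of ordinary depth, with a median of 20 reads and a range of 10 to 332, against a median of 18 over the whole table. Median reads per cluster were 24 in member 3' UTRs, against 21 in all 3' UTR clusters, 21 in member CDS, against 21, and 19 in member introns, against 18. At least 100 reads lay in 10 member clusters (2.27%), against 1.37% of all clusters. The deepest member cluster, in the CDS of Pcdh17, ranked 116 in the table.

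**Figure D1:**
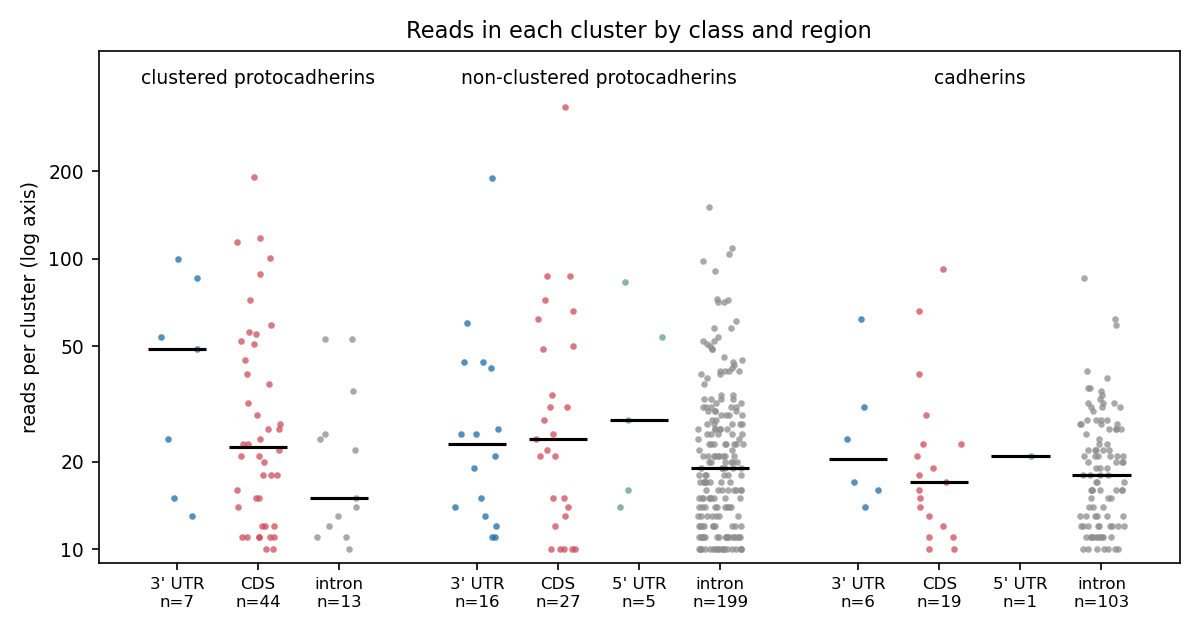
Reads per cluster (log axis) for each cluster that names a clustered protocadherin, a non-clustered protocadherin or a cadherin, by region; each point is 1 cluster, the black line is the median and n is the number of clusters. CDS points make up 44 of the 64 clusters of the clustered protocadherins, and intron points 199 of 247 and 103 of 129 in the other classes.

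GENCODE M21 holds 91 protein-coding genes of these names, and 62 of them had an exonic cluster (68.1%) and 46 a 3' UTR cluster (50.5%). Over all 21924 protein-coding genes the shares were 35.7% and 21.5%. The member counts are raised by the arrays, since 1 cluster on a constant exon is named for every gene of its array. Outside the arrays, 21 of 35 genes had an exonic cluster (60.0%) and 12 a 3' UTR cluster (34.3%). Pcdha10 and Pcdhgb8, also named in the table, have no gene of that symbol in the annotation. Among the 11 non-clustered protocadherins named, 10 had an exonic cluster, and among the 15 cadherins named, 11 did. The table named no cluster for 24 annotated genes. These were 15 Pcdhb genes (Pcdhb1, Pcdhb2, Pcdhb3, Pcdhb4, Pcdhb6, Pcdhb7, Pcdhb8, Pcdhb13, Pcdhb14, Pcdhb16, Pcdhb17, Pcdhb19, Pcdhb20, Pcdhb21 and Pcdhb22), Pcdh12, an endothelial protocadherin, and 8 cadherins. The cadherins without a cluster were Cdh1 (E-cadherin, of epithelia), Cdh3 (P-cadherin), Cdh5 (VE-cadherin, of blood vessels), Cdh15 (M-cadherin, of muscle), Cdh16 (of kidney), Cdh19, Cdh24 and Cdh26. A gene without a cluster may lie below the table's lowest value of 10 reads.

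Non-clustered protocadherins each have their own promoter and 3' UTR and are prominent on developing and mature axons and synapses. Their median of exonic reads (3' UTR, CDS and 5' UTR together) was 171.5 over the 10 genes with any, against 48 over the 8110 genes of the table with any. Per kb of exon the medians were 15.1 reads for the 10 genes and 9.80 over all such genes. Pcdh17, which organises synapses in corticostriatal circuits, was highest with 519 exonic reads. Of these, 332 lay in 1 CDS cluster at chr14:84532980-84533119, in the last exon, centred 2966 bases into a coding sequence of 3471 bases. This cluster holds the 8-base miR-27 site printed above and a match of 6 bases for miR-218. Its 3' end cuts the miR-23 site, of whose 6 core bases 2 lie inside, and the table gives it a circRNA identifier. Without it, Pcdh17 had 187 exonic reads. A second CDS cluster had 22 reads, 5' UTR clusters had 83 and 16, and 3' UTR clusters had 44, 11 and 11. The 3' UTR cluster of 44 reads spans the stop codon.

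Pcdh7, a homophilic adhesion protein also called BH-protocadherin, had 349 exonic reads. Its deepest cluster, of 189 reads at chr5:58129045-58129250, was also named as CDS: it lies in the 3' UTR of one transcript model and in the coding part of the last exon of a longer one. It holds the miR-129 site printed above, a second miR-129 match of which 2 bases lie inside, and matches to miR-338, miR-22 and miR-17. Further 3' UTR clusters had 25, 25 and 15 reads, CDS clusters 24, 15 and 14, and 5' UTR clusters 28 and 14. Without the deepest cluster 160 exonic reads remained. Pcdh9, which has been tied to recognition memory and cortical structure in mice, had 300 exonic reads. They came from 7 CDS clusters of 87, 72, 31, 12, 10, 10 and 10 reads, a 5' UTR cluster of 54 and a 3' UTR cluster of 14. No single cluster made up most of its exonic reads, unlike in Pcdh17 and Pcdh7.

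Pcdh1, known as an adhesion protein of airway epithelium, had 246 exonic reads. Its 7 CDS clusters had 66, 49, 31, 25, 13, 10 and 10 reads and its only 3' UTR cluster had 42. Pcdh10, or OL-protocadherin, which guides striatal axons and recruits the WAVE actin complex, had 223 exonic reads. Its CDS clusters had 62, 50, 34 and 21 reads and its 3' UTR clusters 44 and 12. The 44-read cluster, centred 185 bases past the stop codon, holds the 8-base miR-30 site printed above. CDS clusters therefore held most exonic reads of 4 of these 5 genes, the exception being Pcdh7, whose deepest cluster is the one named for both regions.

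The other non-clustered members had fewer reads. Pcdh19, an X-linked gene mutated in an epilepsy of females, had 120 exonic reads, 99 of them in 3 3' UTR clusters of 60, 26 and 13. The 60-read cluster holds the miR-34 site printed above and matches to miR-137, miR-138 and miR-181. Pcdh18 had 1 exonic cluster, in its CDS, of 87 reads. Pcdh8, or arcadlin, which is induced by neuronal activity and draws N-cadherin into the cell, had a 3' UTR cluster of 19 reads and a CDS cluster of 15. Pcdh20 had a CDS cluster of 28 reads, and Pcdh11x a 3' UTR cluster of 21. Pcdh15, which forms the tip link of inner ear hair cells together with Cdh23, had no exonic cluster.

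Cadherins had fewer exonic reads than the non-clustered protocadherins, with a median of 40 over the 11 genes with any and 5.32 reads per kb of exon. Cdh2 (N-cadherin, the main classical cadherin of neurons) stood apart with 259. Its CDS clusters had 92, 66, 29, 23 and 11 reads, in exons 7, 4, 13, 9 and 3 of 16, and its 3' UTR clusters 24 and 14. Cdh11, a type II cadherin of mesenchyme and brain, had 106 exonic reads: a 3' UTR cluster of 62 that spans the stop codon, CDS clusters of 13 and 10 and a 5' UTR cluster of 21. Cdh6, another type II cadherin, had 2 3' UTR clusters of 31 and 17 reads. Cdh22 had a 3' UTR cluster of 16 and CDS clusters of 16 and 11. Cdh13 (T-cadherin, held to the membrane by a lipid anchor) had CDS clusters of 21 and 19. Leaving out the deepest cluster lowered the total to 167 reads in Cdh2, 44 in Cdh11, 17 in Cdh6, 27 in Cdh22 and 19 in Cdh13.

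Among the remaining cadherins, Cdh7 had 40 exonic reads, Cdh18 32, Cdh10 30, Cdh20 23, Cdh12 14 and Cdh9, which matches partner cells at hippocampal mossy fibre synapses, 10. All of these were counted in CDS by the region order. The Cdh7 cluster and the 17-read Cdh18 cluster were, however, centred at -42 and -20 bases from the start codon. Of the CDS clusters given above, the 13-read Cdh11 cluster and a 10-read Pcdh9 cluster were centred at -10 and -213. Cdh4 (R-cadherin), Cdh8, Cdh17 (of intestine) and Cdh23 had intron clusters only. Cadherin coding sequence is split over many exons, and 13 of the 19 cadherin CDS clusters carried a circRNA identifier (68.4%). Over all CDS clusters of the table the share was 26.7%. In Cdh2 all 5 CDS clusters carried one. In the non-clustered protocadherins 4 of 27 CDS clusters did, and in the clustered protocadherins 0 of 44, which allows a share of up to 6.82% by 3 counts and 8.03% by the Wilson limit. The table does not separate reads of circular from reads of linear RNA.

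**Figure D2:**
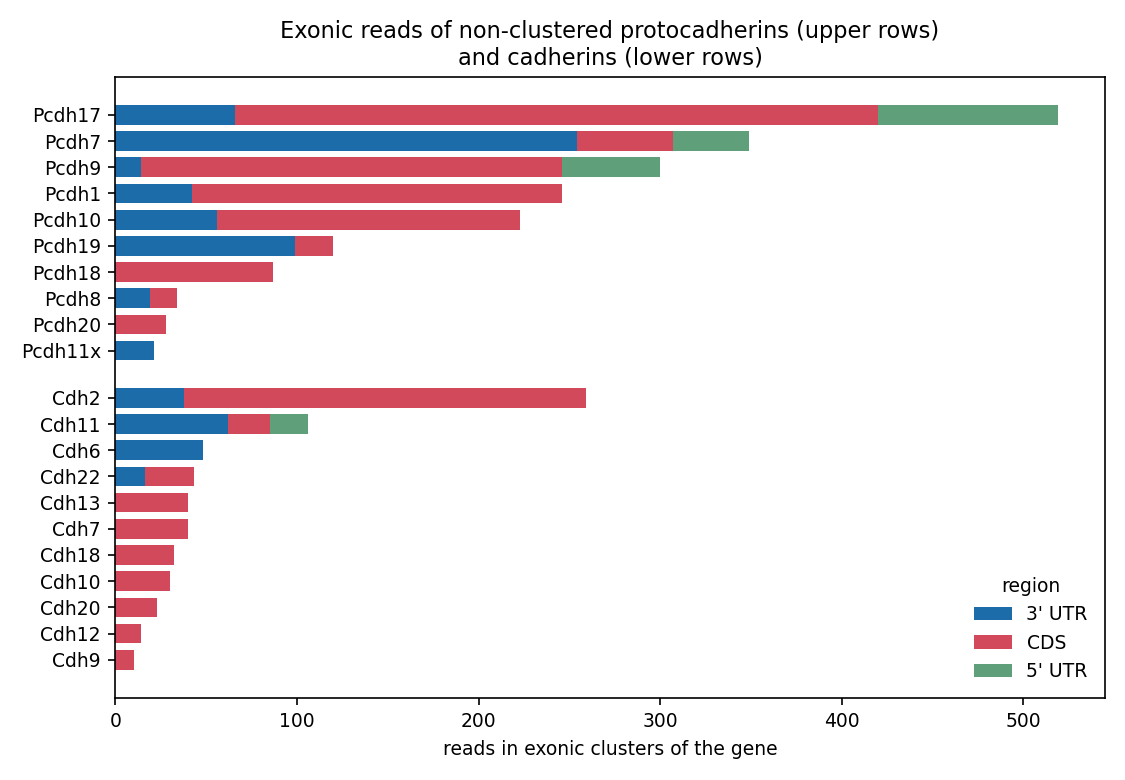
Reads in exonic clusters of each non-clustered protocadherin (upper rows) and cadherin (lower rows) with any, stacked by region; the bars start at 0 and there is 1 pooled value per gene. Pcdh17 reaches 519 reads, mostly CDS, Pcdh7 349, mostly 3' UTR, and Cdh2, the highest cadherin, 259.

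The clustered protocadherins, on chromosome 18, showed a different distribution: 44 of their 64 clusters were in CDS (68.8%, 95% Wilson interval 56.6 to 78.8), 13 in introns and 7 in 3' UTRs. The 14 Pcdha and 22 Pcdhg genes named share 3' UTRs within their array, and those clusters are counted once here. The Pcdha 3' UTR had clusters of 86, 49 and 13 reads, and the shared constant coding exons had 40 and 11. The deepest, at chr18:37186204-37186339, held matches to miR-15 and miR-103, which overlap and so are not separate. The Pcdhg 3' UTR had clusters of 100, 54, 24 and 15 reads, and no cluster on the constant coding exons. The 100-read cluster, at chr18:37840904-37841070, held a match to miR-338. The 7 named Pcdhb genes, which are single-exon genes with their own 3' UTR, had 9 CDS clusters and no 3' UTR cluster.

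In the table, 42 CDS clusters in variable exons each name 1 array gene, although some share long stretches with a paralog, as given below. In the Pcdha array 12 such clusters held 366 reads, in Pcdhb 9 held 514 and in Pcdhg 21 held 679. With the shared clusters included, the genes with the most exonic reads were Pcdhgc5 (366), Pcdhga12 (360), Pcdhgc3 (344), Pcdhac2 (317) and Pcdhgb6 (281). Counting only their own CDS clusters they had 173, 167, 151, 118 and 88. Pcdhgc5 had 6 own clusters of 55, 51, 23, 18, 15 and 11 reads spread along its exon. Pcdhga12 had 114, 32 and 21, Pcdhgc3 118, 23 and 10, Pcdhac2 89 and 29, and Pcdhgb6 56, 20 and 12. By its own clusters alone Pcdhb11 was higher than any of these, with 191 and 72 reads, and Pcdhb12 had 101 and 12. The C-type genes Pcdhac2, Pcdhgc3 and Pcdhgc5, whose promoters are not chosen at random like those of the other genes, were among the deepest, and Pcdhgc4 and Pcdhac1, of the same type, had no cluster of their own.

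The other variable exons with clusters had fewer reads. In the Pcdha array, Pcdha8 had 59 reads, Pcdha7 52, Pcdha12 37 and 14, Pcdha9 21, Pcdha5 18 and 11, Pcdha3 15, Pcdha1 11 and Pcdha11 10. Pcdha2, Pcdha4, Pcdha6, Pcdha10 and Pcdhac1 were named by shared clusters only. In the Pcdhb array, Pcdhb18 had 45 reads, Pcdhb5 27, Pcdhb15 26, Pcdhb10 22 and Pcdhb9 18. In the Pcdhg array, Pcdhga9 had 26 reads, Pcdhga11 24, Pcdhga3 16, Pcdhga8 12, and Pcdhga7 11 in each of 2 clusters. Pcdhga1, Pcdhga2, Pcdhga4, Pcdhga5, Pcdhga6, Pcdhga10, Pcdhgb1, Pcdhgb2, Pcdhgb4, Pcdhgb5, Pcdhgb7, Pcdhgb8 and Pcdhgc4 were named by shared clusters only.

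In the Pcdha array the clusters recurred at one place. Of the 11 variable-exon clusters that could be placed in an annotated coding sequence (a Pcdha5 cluster of 18 reads could not), 9 were centred 242 to 295 bases from the start codon, each in a different gene: Pcdhac2 (242), Pcdha12 (250), Pcdha9 (257), Pcdha3 (280), Pcdha11 (281), Pcdha5 (284), Pcdha8 (288), Pcdha7 (293) and Pcdha1 (295). Their coding sequences are 2802 to 3018 bases long. A window of 200 to 400 bases, chosen after these positions were seen, held 10.6% of the 11433 single-gene CDS clusters of the table with a position. Pcdhb11 (314), Pcdhb12 (259) and Pcdhb9 (382), 3 of 9 Pcdhb clusters, also lay in the window, and they held 310 of the 514 Pcdhb reads. In the Pcdhg array only 1 of 21 did, in Pcdhgb6 (280).

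The shared position went with a shared seed match. Of the 12 Pcdha variable-exon clusters, 6 held a match to miR-221 (50.0%, 95% Wilson interval 25.4 to 74.6), against 2.39% of all CDS clusters. In Pcdha1, Pcdha3, Pcdha5, Pcdha7, Pcdha8 and Pcdha12 the match was of the 7mer-A1 type, 6 bases plus an A opposite miRNA base 1, and began 295 to 307 bases from the start codon. Pcdhb9 held the same type at base 391. No member CDS cluster inside 1 exon held a match to the full seed of miR-221, bases 2 to 8. A miR-128 match began at base 282 in Pcdha7, Pcdha8 and Pcdhb11, at 261 in Pcdhb12 and at 397 in Pcdhb9. These genes are paralogs, so neither clusters nor matches are independent of one another.

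The paralogs share long identical stretches, on which a read cannot be placed with certainty. In 18 of the 40 variable-exon clusters that could be compared, a stretch of at least 30 bases occurred identically in another clustered protocadherin, and in 11 the stretch was at least 50 bases. The whole of the Pcdha3 cluster (150 bases) is found in Pcdha2 and the whole of the Pcdha11 cluster (111 bases) in Pcdha4, so those reads cannot be given to one gene. The Pcdha1 cluster shares 149 of its 156 bases with Pcdha2, and the Pcdhb9 cluster 105 of 106 with Pcdhb7. The longest stretch was 109 of 203 bases for the 191-read Pcdhb11 cluster, in Pcdhb12, 67 of 113 for Pcdha7 and 48 of 106 for Pcdha8. In the C-type genes it was short, at 13 of 173 bases for the 118-read Pcdhgc3 cluster and 16 bases for the 89-read Pcdhac2 cluster. How the authors treated reads with several placements is not given in the sources used here.

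**Figure D3:**
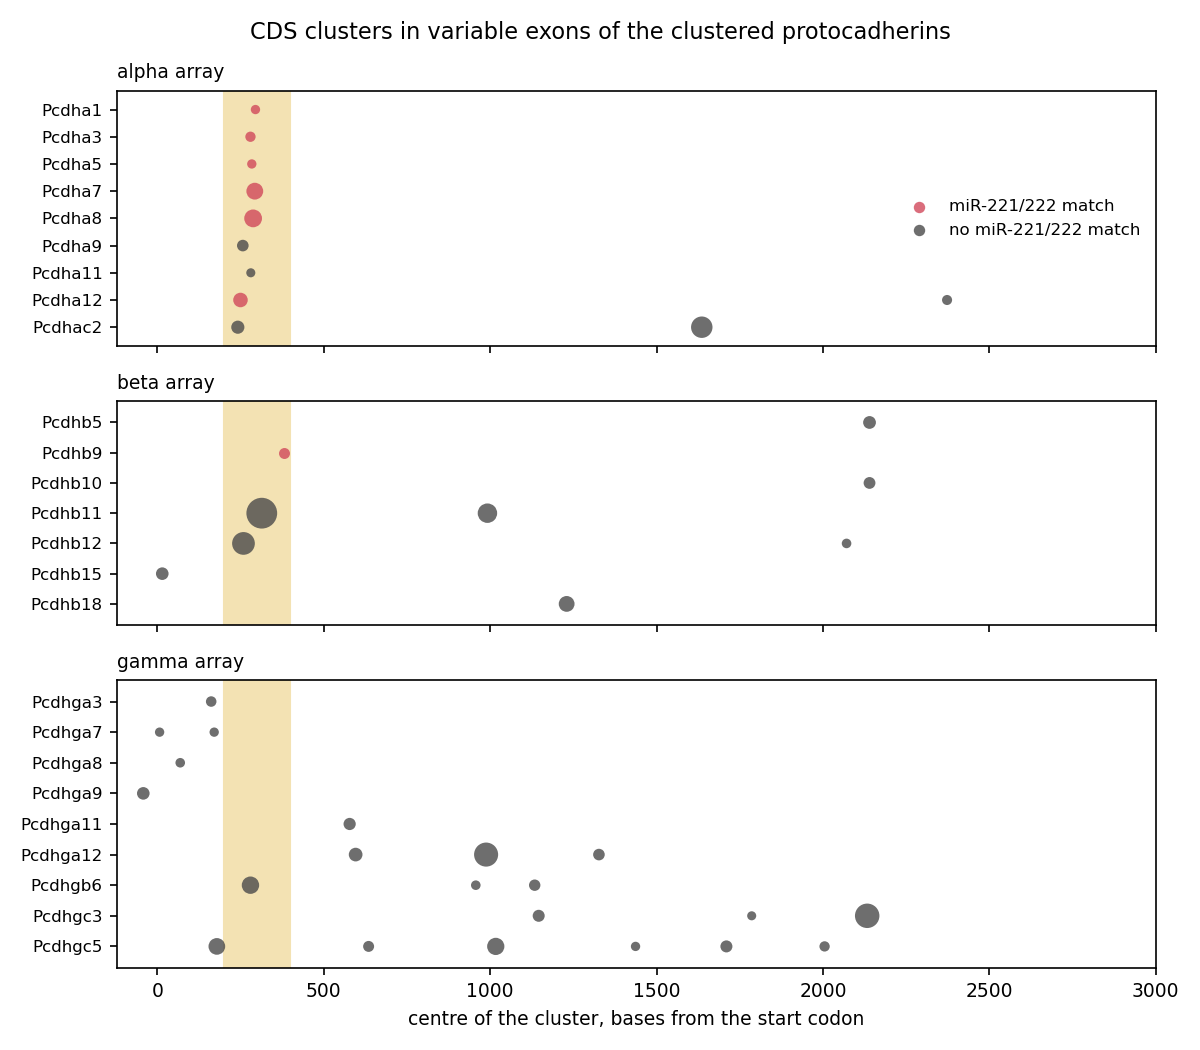
Centre of each CDS cluster in a variable exon, in bases from the start codon, by gene and array; the area of a point rises with its reads, red points hold a miR-221 match and the shaded band is 200 to 400 bases. In the alpha array 9 of 11 points lie in the band, in the beta array 3 of 9 and in the gamma array 1 of 21.

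In the 3' UTRs, 29 clusters named a member. Of these, 26 lay past the stop codon by their centre: 5 in its first 20%, 18 in the middle and 3 in its last 20%. Per kb of 3' UTR, the median number of clusters was 0.503 in the 8 non-clustered protocadherins with one and 0.993 in the 4 cadherins with one, against 0.835 over 4700 genes. The other 3 clusters, in Pcdh7, Pcdh17 and Cdh11, also name CDS. Families of brain-abundant miRNAs were counted by the table's own columns, which hold matches of 6 bases, to miRNA bases 2 to 7. Of 215 such matches located in member exonic clusters, 15 run past a cluster's edge. Among these 15 are the miR-17 matches in Cdh6 (1 base inside) and Pcdh10 (3), the miR-101 match in Cdh22 (1) and the miR-34 match in Pcdh7 (3), which all count below. miR-101 matched 5 of the 29 clusters (17.2%), against 6.86% of all 9284 3' UTR clusters, and miR-17 matched 5, against 5.84%. miR-153 matched 4 (13.8%), against 3.83%, miR-34 matched 4, against 5.41%, miR-132 matched 4, against 7.52%, miR-124 matched 4, against 10.3%, and miR-338 matched 4, against 10.0%. With 29 clusters the intervals are wide, 7.60 to 34.5% for 5 matches and 5.50 to 30.6% for 4. Only for miR-101, miR-17, miR-153 and miR-34, of the 12 families named here, did the interval lie above the share of the whole table, and all 4 miR-153 matches were in clusters of under 20 reads. Under a 7-base match, to miRNA bases 2 to 8, in the 8396 clusters of the table inside 1 exon, miR-101 matched 2 of the 29 (6.90%, 1.91 to 22.0), against 1.79%. miR-34 also matched 2, against 2.33%, miR-17 matched 1 (3.45%, 0.611 to 17.2), against 1.63%, and miR-153 matched 1, against 1.44%. The interval then lay above the table only for miR-101 of these 4, and with clusters of at least 20 reads only for miR-17 and miR-34, so for none of them under both. miR-132, miR-103 and miR-128 had no 7-base match in the 29, against 2.60%, 1.98% and 4.79%.

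At 3 matches (10.3%) each were miR-103, against 9.58%, miR-128, against 13.6%, miR-15, against 10.3%, miR-218, against 6.98%, and miR-23, against 6.64%. The miR-103 and miR-15 matches overlap in the 86-read Pcdha cluster and the 14-read Pcdh9 cluster, so they are not separate there. No match to let-7, miR-19, miR-24, miR-99 or miR-383 was found among the 29. This allows a share of up to 10.3% by 3 counts and 11.7% by the Wilson limit. In that order, these families matched 4.17%, 3.89%, 6.82%, 1.25% and 3.71% of all 3' UTR clusters. Those shares lie below both limits, so the absence does not separate the members from the table. No family of the 30 matched 3 member clusters, in Pcdh17, Cdh6 and the Pcdhg array, against 17.0% of all 3' UTR clusters. Several families met in single clusters. In Pcdh8 the 19-read cluster held matches to miR-101, miR-124, miR-132 and miR-153, and in the Pcdha array the 13-read cluster held miR-101, miR-132, miR-153 and miR-218. The matches of miR-101 and miR-132 overlap where both lie in TACTGTT, which was the case in both of these clusters, so they are not separate there.

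In CDS, miR-128 matched 19 of the 90 member clusters (21.1%, 95% Wilson interval 14.0 to 30.6), against 11.4% of all 12960 CDS clusters, and miR-103 matched 15 (16.7%, 10.4 to 25.7), against 9.61%. miR-221 matched 10 (11.1%, 6.15 to 19.3), against 2.39%, and 6 of the 10 are the Pcdha clusters above. miR-338 matched 11 (12.2%), against 11.7%. These 4 families were singled out after their counts were seen. A miR-103 match overlaps a miR-15 match in clusters of Pcdhgc5, Pcdhga7, Pcdhga8, Pcdhga9 and Cdh13, so they are not separate there. In the 75 member CDS clusters inside 1 exon, a 7-base match to miR-128 was found in 7 (9.33%, Wilson lower limit 4.59%), against 3.79% of 5070 such clusters of the table. For miR-103 the 7-base share lay below the table, at 1 of 75 (1.33%, 0.236 to 7.17), against 2.39%. miR-221 had 0 of 75 (Wilson upper limit 4.87%), against 0.335%, and miR-338 had 1, against 2.47%. For miR-103 and miR-221 these intervals hold the share of the table and higher ones. With so few 7-base matches the count cannot decide whether their higher 6-base shares hold. It also leaves out the 7mer-A1 type, to which the Pcdha matches to miR-221 belong. The miR-128 matches came from 10 clustered protocadherin, 5 cadherin and 4 non-clustered protocadherin clusters. A 7-base match to miR-27, ACTGTGA, was found in 5 of the 75 (6.67%, 2.88 to 14.7), against 3.57%. The 5 were in Pcdh17, Pcdh18, Pcdh19, Cdh18 and Pcdhac2. The Cdh18 match lies upstream of the start codon, in a cluster counted in CDS by the region order.

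**Figure D4:**
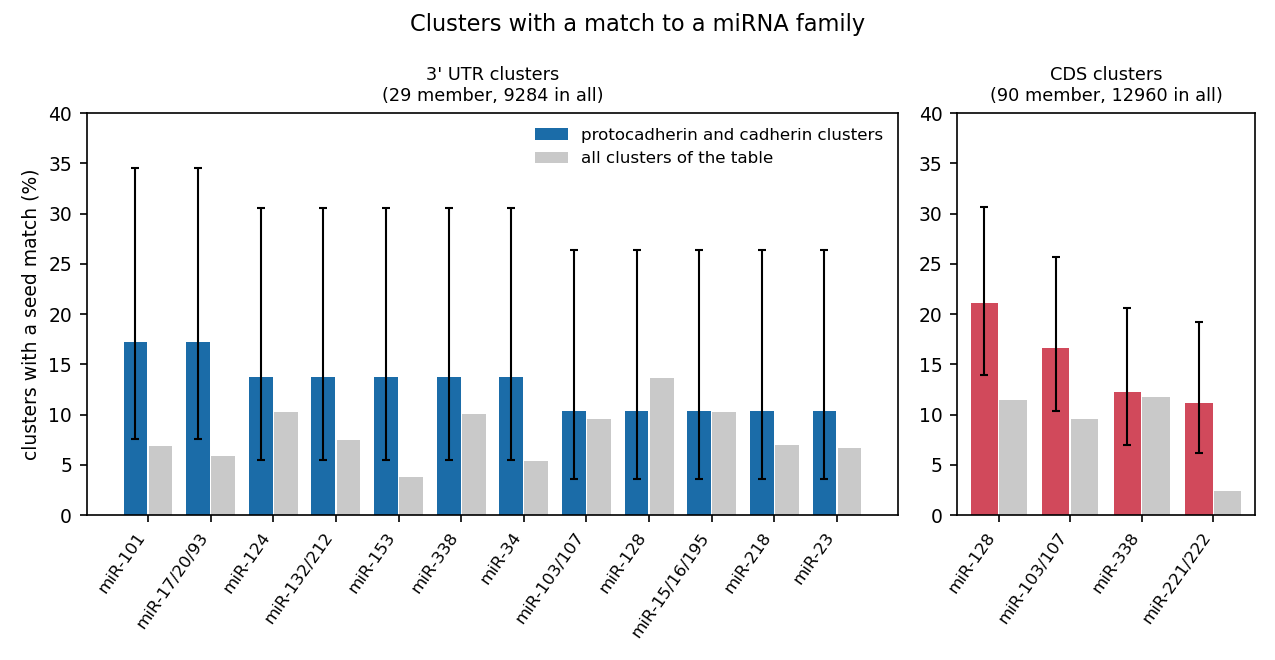
Share of clusters with a match of 6 bases to a miRNA family, in 3' UTR clusters (left) and CDS clusters (right), for protocadherin and cadherin clusters (coloured, with 95% Wilson intervals) and for all clusters of the table (grey); bars start at 0. The interval lies above the grey bar for miR-101, miR-17, miR-153 and miR-34 on the left and for miR-128, miR-103 and miR-221 on the right. On both sides the families were chosen from their counts in these same member clusters.

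Introns of a few long genes held most of the other reads. Pcdh9 had 157 intron-only clusters with 4070 reads, 49.8% of all member intron clusters, and ranked 10 among the 6131 genes with any. By clusters per 100 kb of intron it ranked 6 among 208 genes with at least 500 kb of intron, where the median was 3.34 and the highest 26.7. The clusters were not evenly spread: intron 2 of 4 held 94 (28.9 per 100 kb), intron 3 held 29 (12.4) and intron 4 held 34 (10.9). The deepest had 151 reads at chr14:93473530-93473708, the next ones 109, 104, 98 and 91, and 15 had at least 50. The median was 20 reads, against 18 over all intron clusters of the table, and 77 clusters had under 20. No share over the table is given for these counts by depth. None of the 157 carried a circRNA identifier, against 15.0% of the 32704 intron clusters of the table. Among the 158 member intron clusters without Pcdh9 the share was 8.86%.

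**Figure D5:**
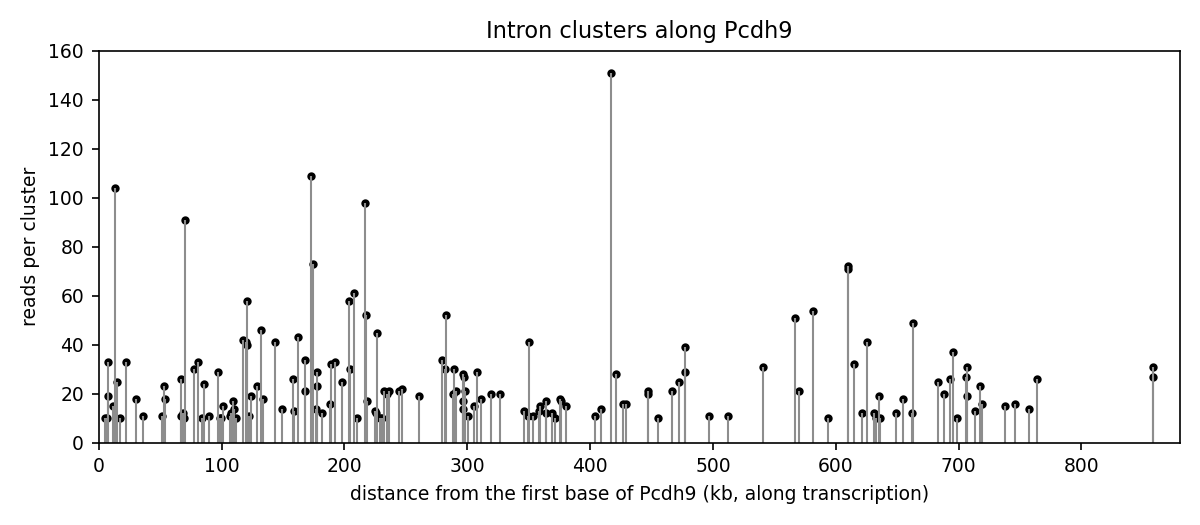
Reads in each of the 157 intron clusters of Pcdh9 against the distance of the cluster from the first base of the gene, along transcription. Clusters lie closer together in the first part of the gene, which holds intron 2 with 94 of them, and the tallest point is the cluster of 151 reads.

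The other long genes were far below Pcdh9. Pcdh7 had 29 intron-only clusters with 580 reads (7.17 per 100 kb), Cdh13 19 with 401 reads (1.84), Cdh2 15 with 392 (7.07), Cdh12 12 with 263 (1.06) and Cdh11 10 with 191 (6.91). Cdh4 had 9 (182 reads), Cdh8 8 (164), Cdh20 7 (189), Cdh10 7 (104), Pcdh15 6 (166) and Cdh9 6 (124). Cdh18 had 3 with 64 reads, Pcdh17 3 with 85, Pcdh10 2 with 36, Cdh7 2 with 25, Cdh22 2 with 26 and Cdh23 2 with 22. Pcdh1, Pcdh19 and Cdh17 had 1 each. Medians over genes with any were 4.84 per 100 kb in non-clustered protocadherins (n = 7), 1.92 in cadherins (n = 14) and 5.27 over all genes. Pcdh15, with 1527 kb of intron, and Cdh18, with 921 kb, had 0.393 and 0.326 per 100 kb. How the number of clusters goes with intron length was not tested. In the arrays, intron-only clusters lay inside introns shared by the genes upstream and are counted once here: 9 in Pcdha, of 10 to 35 reads, and 4 in Pcdhg, of 11 to 53 reads.

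Genes that act with these adhesion proteins were taken from 4 lists. Of 12 catenins and p120 relatives, which link cadherins to the cytoskeleton, 8 had an exonic cluster: Ctnnd2 (delta-catenin) with 296 reads, Ctnnd1 (p120) with 233 and Ctnnb1 (beta-catenin) with 154 were highest. Of 13 intracellular partners of protocadherins, mainly WAVE complex subunits and kinases, 11 had one, led by Cyfip1 (448), Wasf1 (349) and Cyfip2 (207). Of 24 other cadherin superfamily genes 8 did, led by the calsyntenin Clstn3 (482), the seven-pass cadherin Celsr2 (421) and the calsyntenin Clstn1 (327). Of 11 regulators of promoter choice in the arrays 8 did, led by the cohesin factors Wapl (218), Nipbl (173) and Stag1 (147), and Ctcf, which binds the array promoters, had 97. Together 35 of 60 genes had an exonic cluster, against 35.7% of all protein-coding genes.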

How the data were processed

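FLAG-Ago HITS-CLIP reads from 5 Flag-Ago2 and 3 control mouse forebrain libraries were aligned with BWA to mm10, per the submitters' processing notes. Not given in the sources used here are the cluster caller, which libraries it was run on, whether controls were subtracted, how reads with several placements were treated and whether PCR duplicates were collapsed. The deposited read count is 1 whole number per cluster over the whole study, at least 10, with no normalization named in the file headers, so depth per library is unknown. The deposited miRNA columns count matches of 6 bases per cluster, per the file headers and the values: 365764 of 365764 compared values equalled a count of the bases complementary to miRNA bases 2 to 7. A first region (3' UTR, then CDS, 5' UTR, intron) was set for each cluster from the table's gene columns. GENCODE M21 on GRCm38 gave lengths, positions and sequences, with python 3.11.15, pandas 2.3.3 and scipy 1.17.1. Sequences were taken for clusters inside 1 exon. Shares carry 95% Wilson intervals. Code for the region order, interval lengths and Wilson limits was checked on made-up input with known answers. Code that placed sites, positions and shared stretches was not part of that check.

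The members, lists and families were chosen with earlier results of these data known. By rule, every member is named, the 5 members of each class with the most exonic reads or intron-only clusters are described further, as are the 3 partners of each list with the most exonic reads and the 8 families with the most 3' UTR matches (12 with ties). No test was made, since the table separates neither libraries nor groups. Alternatives were a minimum of 20 reads, clusters naming 1 gene, every overlap counted, leaving out the deepest cluster, a 7-base match, matches per kb and, added after seeing the data, leaving out Pcdh9 and a 7-base match in CDS.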

Additional observations from a re-analysis of the deposited data

Results flagged for a closer look

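Clusters on the strand opposite a member gene were outside the counts above. There were 13, with 214 reads in all and 10 to 37 reads each, opposite 9 genes: 3 opposite Cdh13, 2 each opposite Pcdh7 and Cdh4, and 1 each opposite Cdh2, Cdh18, Cdh23, Pcdh9, Pcdh10 and Pcdh19. They drew attention because they hold reads in a column that the comparisons did not use. Of the 13, 12 name no gene on their own strand and 1, opposite Cdh23, lies in the 3' UTR of Vsir. No control level can be set beside them, and their source was not tested. The 13 made up 2.87% of the clusters that name a member or lie opposite one. Over the whole table, 2192 of 70142 clusters name a gene on the opposite strand only.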

How the results depend on the processing

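With only clusters of at least 20 reads the number of member clusters was 223, against 440, and without Pcdh9 it was 274. Without Pcdh9 the shares were 57.7% in introns, 30.3% in CDS and 10.2% in 3' UTRs, against 71.6%, 20.5% and 6.59% with it. Counting every overlap gave 82.5% in introns and 3.18% in 5' UTRs, by construction, since a cluster then counts for several regions. The ratio of the member share to the share of all 3' UTR clusters became 0 under a 7-base match for miR-132, miR-103 and miR-128, against 1.83, 1.08 and 0.758 with 6 bases, and 0 for miR-153 at 20 reads or more, against 3.60. The cause was not tested. The other 31 of 35 alternatives over the 12 named families stayed inside the counting interval of the 6-base value. The interval itself lay above the whole table under a 7-base match for miR-101 alone of the 4 families where it did so with 6 bases. In CDS, a 7-base match, added after seeing the data, gave a ratio of 2.46 for miR-128, against 1.85 with 6 bases, 0.559 for miR-103, against 1.73, 0 for miR-221, against 4.65, and 0.541 for miR-338, against 1.04. The last 3 ratios rest on 1, 0 and 1 of 75 member clusters, too few to decide whether the 6-base shares hold. The CDS clusters with a 7-base miR-128 match lay in the arrays, except 1 in Pcdh19, and are not independent. No 7-base value could be given for miR-124. Without its deepest cluster Pcdhgc3 had 226 exonic reads, against 344, and Pcdhgb6 had 181, against 281. The partner count was 32 at 20 reads or more, against 35. No replicate could be left out, and depth per library is unknown. No paired analysis was possible because the table has no column of a single library.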
